A study of Homo sapiens with 2 samples.

Results

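Interleukin-1 transcripts were examined in THP-1 cells, a human monocytic leukaemia cell line, with and without stimulation by lipopolysaccharide (LPS), a component of the outer membrane of Gram-negative bacteria. The rule listed 3 microarray probes by their identifiers, A_23_P79518 for IL1B, A_23_P72096 for IL1A and A_23_P209995 for IL1RN. The names of these 3 genes come from the Agilent probe catalogue, because the scanner files give probe identifiers alone, and they could not be checked against probe sequences here. Of the 3 probes, 2 were analysed, those of IL1B and IL1A, out of 75149 non-control probes in all. The IL1RN probe was not analysed here. The members were chosen by name with the rise of A_23_P79518 in these data already known, so its values, those of its partner and their ranks are a description.

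The study had 1 array of control cells (Con) and 1 array of LPS cells, each labelled with Cy3 and both on 1 slide. The labels describe 1 growth medium for both groups, name no genetic change, and give 48 h of treatment with DMSO or with LPS, without an LPS dose. By this wording the control cells received DMSO, whereas the methods call these cells untreated. If the LPS cells received no DMSO, effects of LPS and of DMSO cannot be told apart. Neither group had a second array, so no p-value was computed, and the SDs below are between spots of the same probe on 1 array, which is technical error alone. Place on the slide and condition cannot be told apart. The monocytic identity of the cells was not checked against marker genes, since the files name none.

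IL1B and IL1A encode interleukin-1 beta and interleukin-1 alpha, the founding cytokines of the interleukin-1 family. Both bind the receptor IL1R1 with its partner IL1RAP and signal through MYD88 to NF-kB, whereas the product of IL1RN occupies the receptor without signalling. In monocytes and macrophages LPS is sensed by TLR4, which also signals through MYD88. Interleukin-1 beta is made as an inactive precursor that caspase-1 cleaves in the inflammasome, so its transcript level is not a measure of released cytokine, and the precursor of interleukin-1 alpha is already active.

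IL1B and IL1A lie in a cluster of interleukin-1 genes on human chromosome 2, which in the RefSeq gene table (GRCh38.p14) also holds IL37, IL36G, IL36A, IL36B, IL36RN, IL1F10 and IL1RN. They are neighbouring protein-coding genes there, with 1 annotated lncRNA between them. The 250 bases before the annotated start of each gene are shown because both transcripts were higher after LPS. They are given 5′ to 3′ on the strand of the gene, from RefSeq GRCh38.p14, with chr2:112836780-112837029 (minus strand) for IL1B and chr2:112784494-112784743 (minus strand) for the first of the 2 starts of IL1A. Capitals mark matches to the motifs searched.
IL1B: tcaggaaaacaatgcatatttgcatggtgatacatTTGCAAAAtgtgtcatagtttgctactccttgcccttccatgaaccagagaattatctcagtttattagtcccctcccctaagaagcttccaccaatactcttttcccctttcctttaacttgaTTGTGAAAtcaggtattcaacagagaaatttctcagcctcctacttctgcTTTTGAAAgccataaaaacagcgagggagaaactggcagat
IL1A: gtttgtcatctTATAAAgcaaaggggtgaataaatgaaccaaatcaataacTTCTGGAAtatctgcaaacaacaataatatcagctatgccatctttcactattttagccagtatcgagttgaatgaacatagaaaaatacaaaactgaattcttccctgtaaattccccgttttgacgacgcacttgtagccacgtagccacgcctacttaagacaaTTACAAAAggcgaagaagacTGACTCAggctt

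The motifs searched on both strands were AP-1 (TGANTCA), C/EBP (TTNNGNAA), PU.1 (GAGGAA), the TATA box (TATAAA) and the NF-kB consensus. AP-1 and C/EBP are families of transcription factors, PU.1 is a myeloid factor, and the TATA box is a core promoter element. The stretch of IL1B held 3 C/EBP matches, at 215 to 208, 91 to 84 and 41 to 34 bases before the start. That of IL1A held 2 C/EBP matches, at 199 to 192 and 32 to 25, an AP-1 match at 12 to 6 and a TATA box match at 239 to 234. The stretch before the second start of IL1A shares 157 bases with the first and held 2 AP-1 matches and 1 C/EBP match, of which 1 AP-1 and the C/EBP match are sites already counted before the first start. Over both stretches IL1A thus held 2 AP-1 and 2 C/EBP sites. None of the matches overlapped within a stretch. Neither gene held the exact letters GAGGAA, searched for PU.1, or the NF-kB consensus in these stretches. Of all 35116 stretches of this length in the table, 33.2% held C/EBP, 23.6% PU.1, 10.7% the TATA box, 9.96% NF-kB and 6.57% AP-1. A match describes letters alone and was not tested as a binding site. Other forms of these motifs were not searched, so a missing match does not mean that a site is absent.

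**Figure D1:**
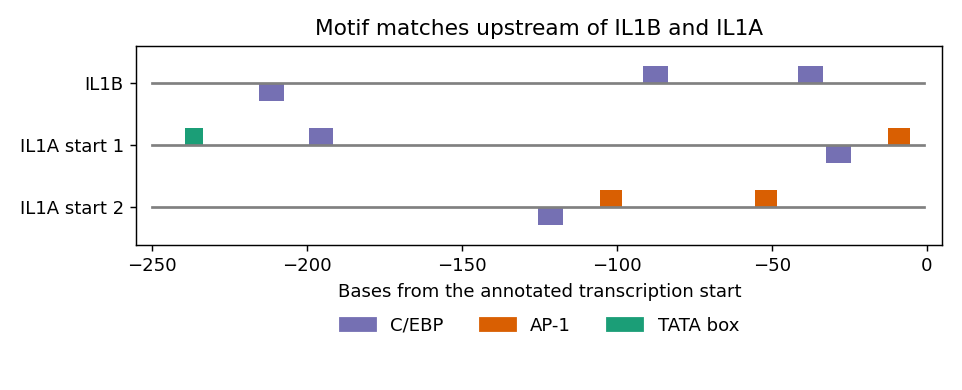
Positions of motif matches in the 250 bases before each annotated start of IL1B and IL1A, with bases from the start on the x axis. Boxes above a line are matches on the strand of the gene and boxes below it on the opposite strand. IL1B has 3 C/EBP matches, and AP-1 matches are seen before both starts of IL1A, 1 of them the same site, and not before IL1B.

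IL1B was 31.1-fold higher in LPS cells than in control cells, and IL1A was 9.21-fold higher. For IL1B on the control array, 2 spots gave processed signals of 1135 and 1006, in the arbitrary units of the scanner software. On the LPS array the same 2 positions gave 36471 and 35089. Both LPS spots lay far above both control spots. This is a description, since the share of all probes with spots so separated was not counted. The second LPS spot carried the software's flag for non-uniform pixels and was left out, so the LPS value of IL1B rests on 1 spot, while no other spot of either probe was flagged.

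With that spot left out, the mean signal of IL1B was 1069 in control cells (spot SD 0.12 on the log2 scale, 2 spots) and 36471 in LPS cells (1 spot). After each array was scaled to its 75th percentile, a signal of 547 for control and 599.8 for LPS, the difference was 4.96 (log2), or 31.1-fold. Taken position by position, the difference was 4.87 for the first spot and 4.99 for the second, the flagged one. The flagged spot therefore gave nearly the same difference as the unflagged one.

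The IL1A probe also gave a higher signal after LPS. Its 2 control spots gave 120 and 104. The LPS spots at the same positions gave 1130 and 1122. The spots of the 2 conditions did not overlap, again without a share over all probes to set beside it. The mean signals were 111 for control (spot SD 0.14, log2) and 1126 for LPS (spot SD 0.0066, log2), and the scaled difference was 3.20 (log2), or 9.21-fold. The difference was 3.11 at the first position and 3.30 at the second.

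**Figure D2:**
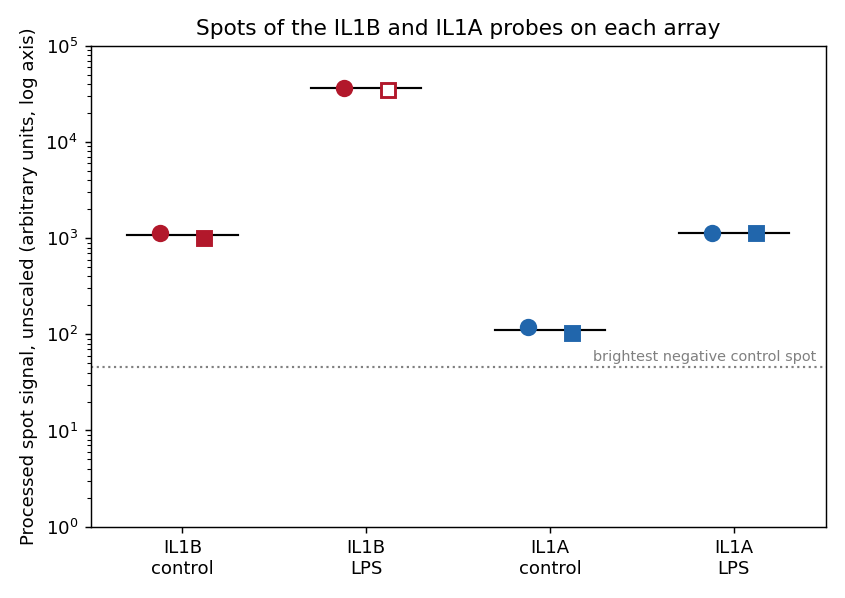
Processed signal of each spot (log axis, arbitrary units, before scaling) for the IL1B and IL1A probes on the control and LPS arrays. Circles and squares are the first and second spot, the open square is the flagged spot, black lines are the means over kept spots, and the dotted line is the brightest of the negative control spots, 45.5. For each probe both LPS spots lie above both control spots, and the share of all probes with such spots was not counted. Levels of the 2 probes are not comparable with each other.

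Every spot of both probes was marked well above background. The median signal of the IL1A spots on the control array, the dimmest of the set, was 8.38 and 8.56 times their local background. With LPS the ratio was 58.1 and 65.1. For IL1B the ratio was 54.2 and 63.8 in control cells and 1784 and 1798 in LPS cells. The local background itself was 16 for all control spots and 16 to 19 for the LPS spots. The 600 negative control spots had a median processed signal of 2.54 (control) and 2.23 (LPS), and their highest values were 45.5 and 33.2. The mean IL1A signal on the control array was 2.45 times the highest of these. No spot was saturated, and the brightest IL1B spot had 4.16% of the scanner's saturation value. The software's own error estimate was between 10.0% and 10.3% of the signal for the spots of both probes.

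Over probes well above background on both arrays, the SD between spots, pooled over probes, was 0.15 (log2) for control and 0.17 for LPS, which gives 0.23 for a difference of the arrays. The IL1B difference was 22.0 times and the IL1A difference 14.2 times that technical SD. This sets the size against error within an array and says nothing of the spread between cultures.

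Both analysed probes passed 2-fold in the direction of LPS, the threshold for a call here. Among all 69392 probes well above background on at least 1 array, 543 were called higher, or 0.783%. Since the choice of the members used this contrast, their count is not read against that share. By the size of the measured rise, IL1B was at rank 2 and IL1A at rank 21 among 61465 probes well above background on both arrays. Of these probes 504 were higher by at least 2-fold, 93 by at least 4-fold, 27 by at least 8-fold, 5 by at least 16-fold and 1 by at least 32-fold. IL1B was among the 5 and IL1A among the 27.

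When all probes were ordered by mean signal and divided into 10 equal groups, IL1B fell in the brightest group, whose median difference was 0.03 (log2, interquartile range -0.09 to 0.15), with 48 of 7515 probes called higher (0.639%). IL1A fell in the seventh group, whose median difference was 0.01 (0.0087, interquartile range -0.15 to 0.17), with 87 of 7515 probes called higher (1.16%). Dim probes as a group gave lower signals with LPS, and neither member lay among them. The groups include probes not well above background. The negative control spots also had a lower median with LPS before scaling, 2.23 against 2.54. Many dim probes fell by more than this shift of the negative controls. The cause of the lower signals of dim probes was not tested, and they are not read as lower expression.

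**Figure D3:**
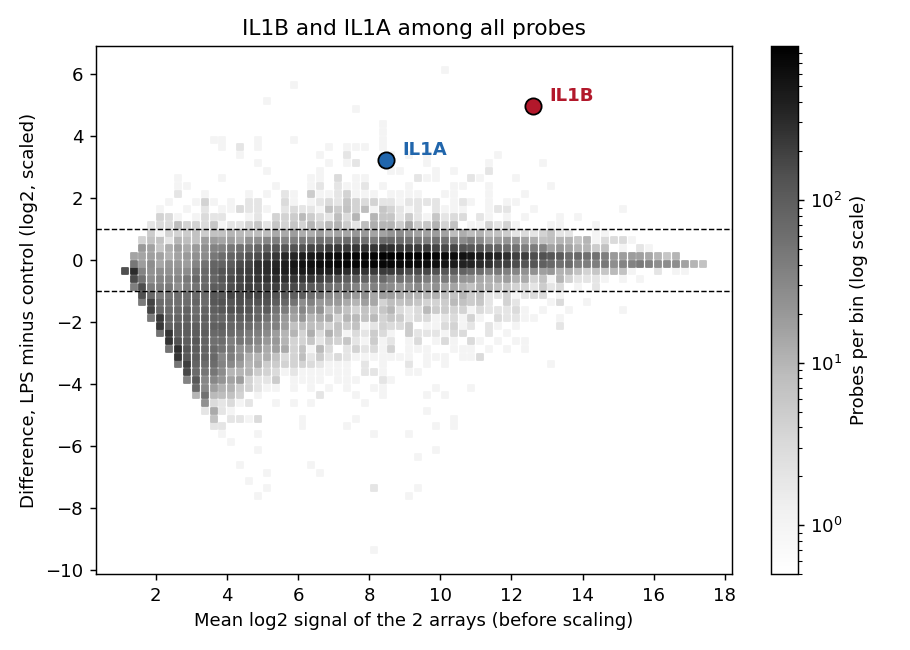
Difference, LPS minus control (log2, scaled to the 75th percentile), against the mean log2 signal of the arrays for all 75149 probes, in grey bins shaded by the number of probes, with IL1B in red and IL1A in blue. Dashed lines mark 2-fold. IL1B at 4.96 and IL1A at 3.20 stand above the mass of probes of like signal, and most of the dim probes at the left lie below 0.

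Neighbouring spots did not differ to this degree. Within 10 rows and 10 columns of each of the 4 spot positions there were 167 to 342 other spots that were unflagged and well above background on both arrays. Their median differences were -0.04 and -0.05 (log2) around the IL1B positions and -0.10 and 0.01 (0.0059) around the IL1A positions. The highest single neighbour differed by 1.53. Of these neighbours 0 reached the difference of the spot they surrounded. Only 27 of 61465 probes rose by at least 8-fold, so this count was likely for any such group of spots and is a description. Of 1064 rows, the IL1B positions were in rows 18 and 1028 and the IL1A positions in rows 401 and 446. The neighbours are spots of other probes, and an effect of place on the slide was not tested.

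The arrays also carried 4 human control probes for GAPDH and PGK1, enzymes of glycolysis, which differed by 0.33 to 0.54 (log2) in the same direction. The 6 bright probes for E1A, a viral sequence that serves as a labelling control, differed by 0.05 to 0.21. A bright control probe named ERCC-00012 differed by 0.34. Dimmer E1A and ERCC control probes went in both directions, from -0.54 to 0.75. The differences of all these controls are well below those of IL1B and IL1A, and their part in the latter was not tested. Scaling to the E1A probes in place of the percentile gave 4.80 for IL1B and 3.04 for IL1A.

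The rise of IL1B exceeded that of IL1A by 1.76 (log2), or 3.38-fold, against a technical SD of 0.32 for such a comparison of single spots. This compares the relative change of 2 probes, whose response to the amount of transcript can differ, and a scaling of the arrays by a single factor cannot move it. The arrays measure RNA pooled from a culture, so more transcript per cell and more cells that carry the transcript cannot be told apart.

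The differences held their direction and stayed above 2-fold in all 13 other ways of computing them. These ways are not independent. The deposited table and the median over spots gave the same values for these probes before scaling. Several other settings only shifted both differences by the same amount. The fold of IL1B lay between 27.9 and 34.1, and its rank between 1 and 4. The fold of IL1A lay between 6.40 and 10.1, and its rank between 19 and 23. The lowest IL1A value came from the normexp background correction, where the difference was 2.68 (log2), and that of IL1B minus IL1A was 2.26. The values of the authors' processed table for these probes, 1069 and 36471 for IL1B and 111 and 1126 for IL1A, equal the means over unflagged spots given above.

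**Figure D4:**
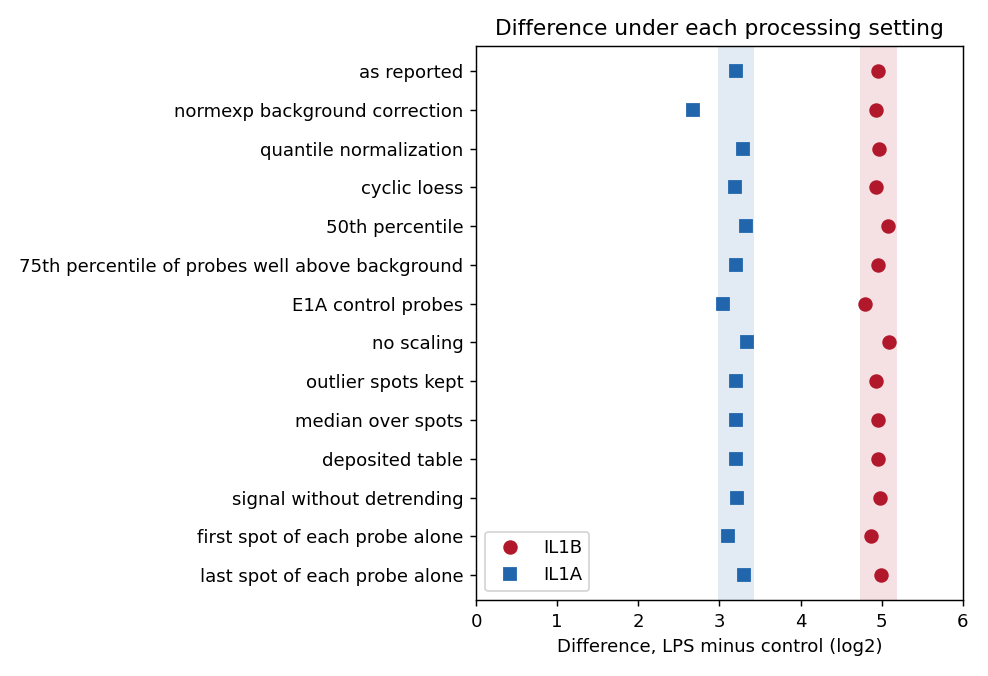
Difference, LPS minus control (log2), of IL1B (red circles) and IL1A (blue squares) as reported and under each of 13 other settings. Shaded bands are the reported difference plus or minus the technical SD of 0.23 for a difference of single spots. The points stay in their bands apart from IL1A under the normexp correction, at 2.68.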

How the data were processed

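RNA of 1 control and 1 LPS culture of THP-1 cells was labelled with Cy3 and hybridised to 1 array each. The authors deposited the spot intensity from Agilent Feature Extraction 11.5.1.1 (180880 spots per array), background-subtracted and detrended by that software and unscaled between arrays, with other columns of flags per spot (0 or 1). A deposited table holds 1 intensity per array for 65460 of the 75149 non-control probes. The study's methods state no normalization or test for the arrays, and the tests they give for group differences need replicates.

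Control spots and spots flagged as outliers were set aside (a probe with flagged spots alone kept them), log2 intensities were averaged per probe, and the 75th percentile over probes was subtracted, a shift of 0.13 (log2) between the arrays. A probe was well above background when most kept spots were so marked. Where this held on 1 array alone, the difference was a bound against the higher of its own value and the lowest signal of a probe well above background. Calls were made at 2-fold, without a test, and the number of arrays limits their precision.

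The probes named are those of the rule. Members, motifs and alternatives were chosen with earlier results of these data known. Lists of other interleukin-1 pathway genes and of cell type markers were not used, as probes could not be paired with genes, nor was a protein comparison. Alternatives were the normexp correction (limma 3.58.1, offset 50, median spot and background intensities), quantile and cyclic loess normalization, the 50th percentile, the 75th percentile of probes well above background, E1A controls with a signal of at least 100, no scaling, flagged spots kept, the median over spots, the deposited table, other thresholds and other filters. The signal before detrending and single spots were added after the data were seen. The steps were run on simulated data, where the added changes were well above 2-fold and both arrays had the same background marks. Changes near 2-fold and the bound were thus not tested by it. Versions were Python 3.11.15, numpy 2.4.6, pandas 2.3.3, matplotlib 3.10.9 and R 4.3.3.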

Additional observations from a re-analysis of the deposited data

How the results depend on the processing

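The IL1B difference stayed within the single-spot technical SD of its reported value under all 13 alternatives run, from 4.80 to 5.09 (log2). The IL1A difference did so under 12 of 13. Several of these reused the same probe values or only shifted both differences by the same amount, so they could move little. Under the normexp background correction, which adds an offset of 50 to each signal, the IL1A difference was 2.68 and the excess of IL1B over IL1A was 2.26, against 3.20 and 1.76. The settings without detrending and with 1 spot of each probe were chosen after the data were seen. The number of probes called higher, 543 as reported, was 312 with normexp, 2827 with quantile normalization and 1648 with cyclic loess, and 1794, 214 and 108 at thresholds of 1.5-fold, 3-fold and 4-fold. It was within 1.5 times of 543 under the other 12 alternatives, and IL1B and IL1A were past the threshold under each. No alternative could be run for IL1RN, which was not analysed here. No paired analysis was possible because each condition had 1 array. What limits these values is the number of arrays, and for IL1B the single unflagged LPS spot.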
